A study of Mus musculus with 9 samples.

Results

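AP-1 and other immediate early transcription factors were followed in single-nucleus RNA sequencing (sNuc-seq) data from mouse hearts after ischemia-reperfusion (I/R). The set was a fixed list of 10 genes, Fos, Fosb, Fosl1, Fosl2, Jun, Junb, Jund, Atf3, Egr1 and Klf6, chosen by name and not by their values, out of 23747 genes in the tables. All 10 were present. The hearts came from C57BL/6 mice in 3 groups of 3 mice. All groups had a gavage of 7 days before the operation. Sham mice received vehicle and then a needle pass with no ligation. I/R mice received vehicle, then ligation of a coronary artery for 30 min, and were examined after 24 h with the vessel open again. In the SBP group, mice were given Shexiang Baoxin Pill, a traditional Chinese medicine that the labels call MUSKARDIA, before the same ligation and reopening. Per the study's text, the tissue was taken from the part below the ligation, so the levels describe that part and not the whole heart. The labels give no age, and the study's methods describe young adult mice.

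The AP-1 factor is a dimer of a Fos protein and a Jun protein, or of Jun proteins with each other or with an Atf protein, and it binds DNA through a basic leucine zipper. Fos, Fosb, Fosl1 and Fosl2 are the Fos partners, Jun, Junb and Jund the Jun partners. Atf3 is a stress-induced partner that often represses transcription, Egr1 is a zinc finger factor induced by growth factors and stretch, and Klf6 is a Krüppel-like zinc finger factor. Immediate early genes are switched on within minutes of a signal, without new protein synthesis, and most of their transcripts decay quickly. In the heart they are known to respond to ischemia, reperfusion and pressure load.

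Nuclei were sorted into cell types by clustering with the members left out of the genes used, and the clusters were named from marker genes. The 9 tables held 49171 nuclei, fewer than the study's text states after quality control, with 4576 to 6418 nuclei and 10329520 to 18205985 unique molecular identifiers (UMIs, each standing for 1 captured transcript) per mouse. Any pair of libraries shared 4 to 14 barcodes. The main types were cardiomyocyte-like (10528 nuclei), endothelial-like (13463), fibroblast-like (14123) and myeloid-like nuclei (9186), named below without the ending. Every marker gene of these 4 types had UMIs in the nuclei named for it, although single clusters passed the naming rule on fewer, the lowest being 4 of 10 markers in a myeloid cluster of 199 nuclei led by Il1r2 and S100a9. A level is given as CPM, the common scale to which a gene's UMIs were brought after summing over the nuclei of a type in a mouse, with a correction for composition. A gene was called changed at an adjusted p (limma, Benjamini-Hochberg over all genes tested) of at most 0.05 with an absolute log2 fold change over 0.25. With 3 mice against 3, an exact permutation test of a single value cannot go below 0.1. In sums over many nuclei, fewer transcripts per nucleus, fewer nuclei that express a gene and another mix of subtypes cannot be told apart. Of the endothelial nuclei, 510 fell in a subcluster led by cardiomyocyte genes 118 in one led by Lsamp and 87 in one led by Csf3r and Il1b, genes known from neutrophils, and these were not taken out of the endothelial sums.

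Promoter sequence was looked up for Fos and Junb, since Junb was one of the members called and Fos is the founding member of the family. The table of RefSeq promoter windows (GRCm38.p6, from 250 bases before to 50 bases after a gene's start) held 8 of the 10 members, without Fosl1 and Egr1. Its starts are those of RefSeq, and for Jund the whole window lies upstream of the start that GENCODE gives. For Atf3 and Fosl2 no base of the window lies before the GENCODE start, so that their matches counted below lie past it. The bases before the GENCODE start are shown, 5′ to 3′ on the gene's strand, with matches to the core of a cyclic AMP response element (TGACG, either strand) and to a TATA box (TATAAA, either strand) in capitals. For Junb the GENCODE start lies downstream of the RefSeq start, so its stretch is longer than 250 bases. The Fos stretch is chr12:85473640-85473889 on the plus strand, the Junb stretch chr8:84978719-84978998 on the minus strand.
Fos: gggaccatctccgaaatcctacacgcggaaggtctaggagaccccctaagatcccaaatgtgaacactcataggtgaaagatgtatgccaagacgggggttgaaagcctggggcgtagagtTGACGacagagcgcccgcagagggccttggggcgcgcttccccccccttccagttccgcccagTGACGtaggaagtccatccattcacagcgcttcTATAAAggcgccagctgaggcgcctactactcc
Junb: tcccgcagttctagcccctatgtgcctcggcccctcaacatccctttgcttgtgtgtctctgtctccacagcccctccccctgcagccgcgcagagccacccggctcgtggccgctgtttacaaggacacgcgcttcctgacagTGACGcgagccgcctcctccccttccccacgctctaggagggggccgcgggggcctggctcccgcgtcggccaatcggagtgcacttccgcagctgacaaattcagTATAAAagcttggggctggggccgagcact
The TATA box began 33 bases before the GENCODE start of Fos and 30 bases before that of Junb. A TATA box was present in 2 of 8 member windows (Junb and Fos) against 13.6% of all 32851 windows, and TGACG in 4 of 8 (Atf3, Fosb, Junb and Fos) against 20.8%. The full response element TGACGTCA, which contains TGACG, was in 0 of 8 (1.79% of all windows), the AP-1 site TGANTCA, with N for any base, in 0 of 8 (7.81%), the CArG box in 0 of 8 (1.63%) and the Egr site GCGNGGGCG in 2 of 8 (Fosl2 and Fosb, 5.55%). These are matches of letters in short windows and say nothing about binding.

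In sham hearts the members differed in where they were found. Egr1 was highest in fibroblasts, at 45, 34.8 and 308 CPM in the 3 mice, and in endothelial cells, at 25.6, 70.1 and 65.1 CPM. It was 14.2, 10.9 and 16 CPM in myeloid cells and 2.65, 3.42 and 5.84 CPM in cardiomyocytes. Fibroblasts and endothelial cells overlapped, while endothelial cells lay above myeloid cells and these above cardiomyocytes in every sham mouse. Atf3 had another order. It was 12.4, 15.5 and 16 CPM in myeloid cells, 2.78, 3.22 and 2.49 CPM in endothelial cells, and at most 2.44 CPM in fibroblasts and cardiomyocytes, which overlapped. Klf6 was 121, 120 and 146 CPM in myeloid cells, which overlapped with endothelial cells, and 26.3, 17.7 and 21.2 CPM in cardiomyocytes, below the other types. Fosl2 and Jun overlapped between all neighbours in their order of types. In the 1795 sham myeloid nuclei, neither Fosb nor Fosl1 had a UMI. These orders are descriptions without a test, and 6 cardiomyocyte markers summed to 4636 to 8887 CPM in the sham sums of the other types, against 43279 to 55591 CPM in cardiomyocytes.

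**Figure D1:**
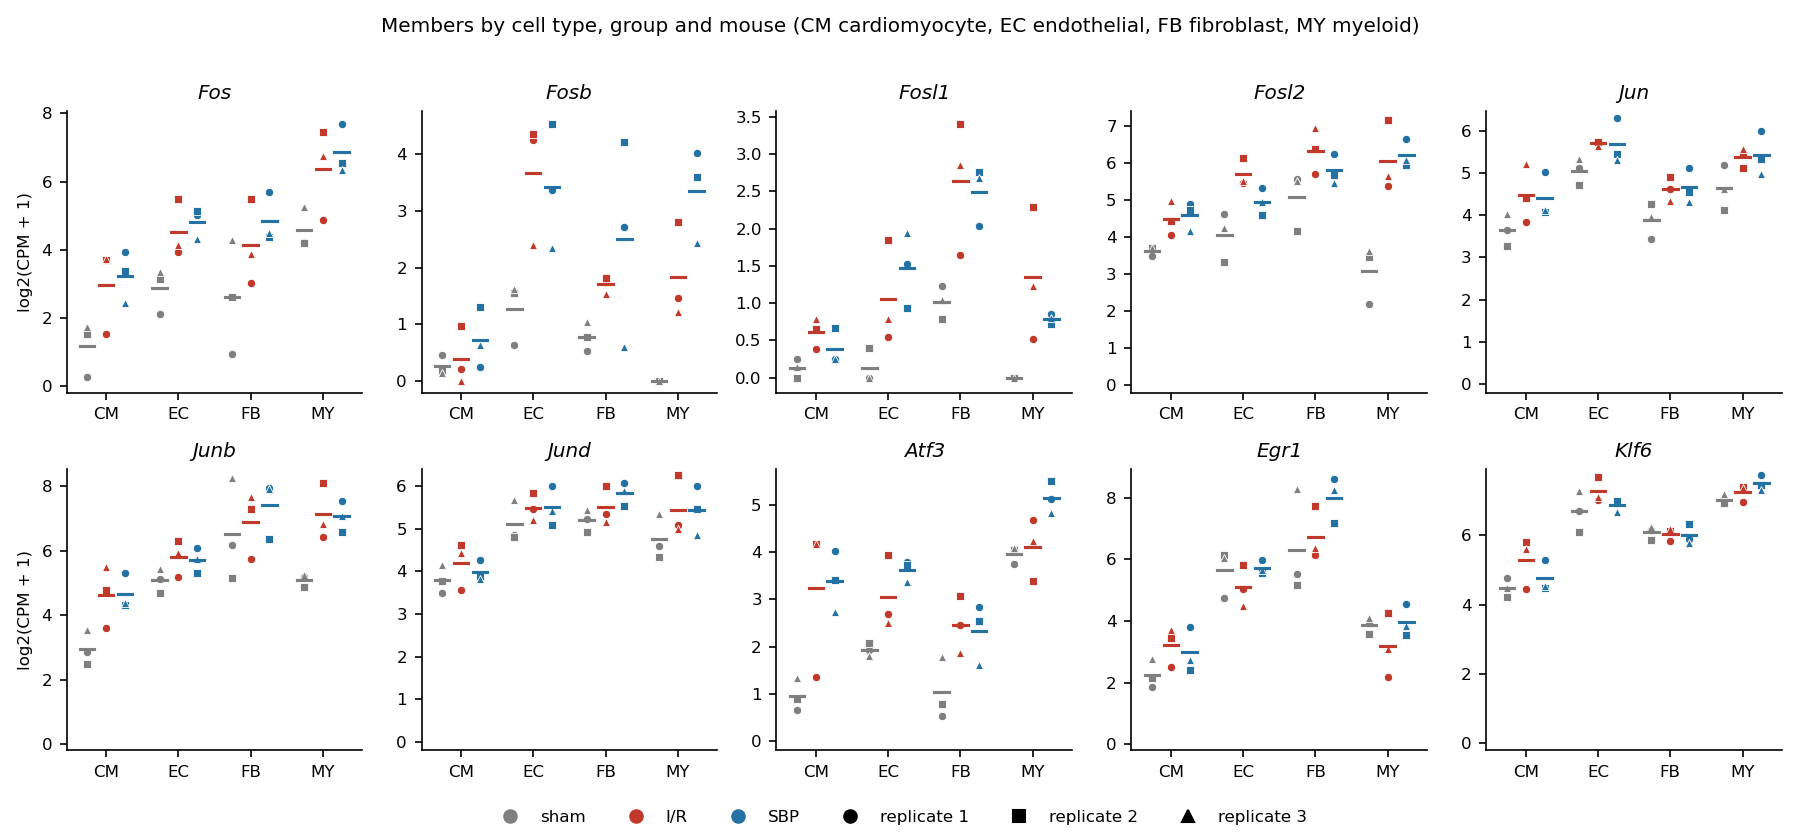
Level of each member, as log2(CPM + 1), in cardiomyocytes (CM), endothelial cells (EC), fibroblasts (FB) and myeloid cells (MY), with 1 point per mouse, shape for replicate number and bars for the group means of 3 mice. Sham points lie lowest for Fosl2 and Junb in myeloid cells, while Egr1 points of the groups overlap in all 4 types.

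I/R was compared with sham to ask how the members stood 24 h into reperfusion. Few of them passed the test. In cardiomyocytes 0 of 8 members tested were called (0.635% of all 12905 genes tested were called higher), among endothelial nuclei 1 of 9 (Fosl2, against 1.82% of all genes), among fibroblasts 1 of 9 (Fosl1, against 6.48%) and among myeloid nuclei 2 of 8 (Fosl2 and Junb, against 10.6%). Every called member was higher in I/R. Fosb passed the filter on low values only in endothelial cells and Fosl1 only in fibroblasts. In these cases, and for Atf3 in all types but myeloid cells, no sham mouse was over the minimum, so that the member was tested only through I/R and SBP mice and had to differ from sham. Most of the others had positive but uncalled fold changes. In cardiomyocytes all 8 members tested had a positive fold change, with a median of 0.90 on the log2 scale against -0.02 for all genes, and 7 had an unadjusted p under 0.05, against 14.1% of all genes. The corresponding counts at an unadjusted p under 0.05 were 6 of 9 members for endothelial cells (17.6% of all genes), 4 of 9 for fibroblasts (25.6%) and 4 of 8 for myeloid cells (32.4%). These counts include the members that had to differ. All 3 I/R mice lay above all sham mice for 3 cardiomyocyte members (8.08% of all genes), 5 endothelial (9.98%), 4 fibroblast (13.8%) and 2 myeloid (20.8%). Among these, Atf3 in cardiomyocytes, Fosb and Atf3 in endothelial cells, and Fosl1 and Atf3 in fibroblasts again had to differ. With limma's voom weights, a fit that weighs a value by its count, 0 members were called in cardiomyocytes and fibroblasts, 1 among endothelial nuclei and 1 among myeloid nuclei. Calls over all genes in that fit were 51 of 12905 in cardiomyocytes, 331 of 12220 in endothelial cells, 1140 of 13073 in fibroblasts and 1563 of 10747 in myeloid cells, against 103, 395, 1525 and 1984 without the weights.

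SBP against sham, which shares the sham mice, called 0 members in cardiomyocytes (0.116% of all genes were called higher), 1 among endothelial nuclei (Atf3, which no sham mouse held over the minimum and which had to differ, against 0.655%), 0 among fibroblasts (3.7%) and 3 among myeloid nuclei (Fosl2, Junb and Atf3, against 7.51%). At an unadjusted p under 0.05 there were 4 of 8, 5 of 9, 5 of 9 and 6 of 8 members in the same order of types, against 13.4%, 15.3%, 19.7% and 28.8% of all genes. These counts again include the members that had to differ, and voom weights called 0 members in every type, where calls over all genes were 0, 235, 479 and 943, against 16, 261, 793 and 1412 without the weights. The 3 SBP mice lay above all sham mice for 5 cardiomyocyte members (10.7% of all genes), 3 endothelial (11.5%), 4 fibroblast (14.7%) and 5 myeloid (19.5%). Among these, Atf3 in cardiomyocytes, Fosb and Atf3 in endothelial cells, and Fosl1 in fibroblasts had to differ.

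**Figure D2:**
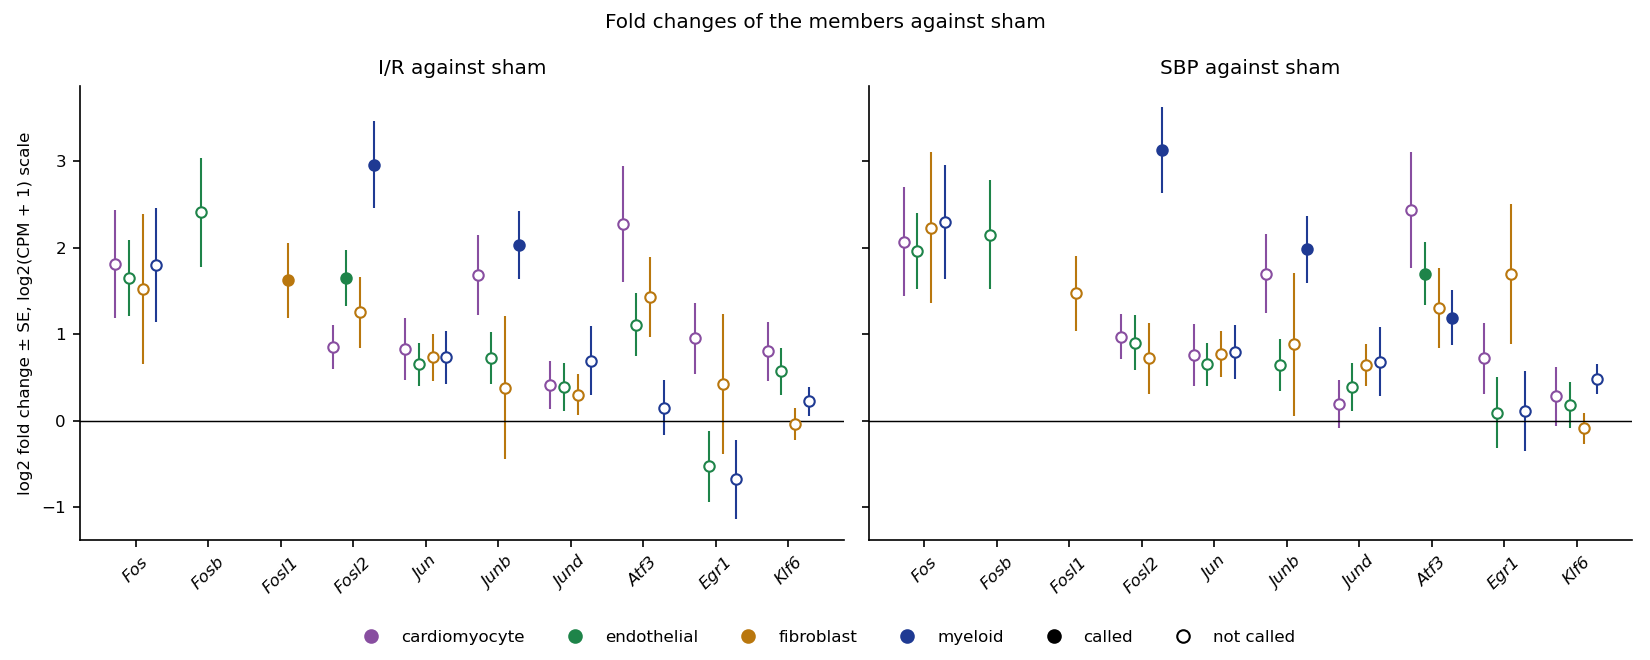
Log2 fold change with its SE (limma, log2(CPM + 1) scale) of each member tested in each cell type, for I/R against sham and SBP against sham, with filled points for called members. Fosl2 in myeloid cells is the highest called point in both panels, at 2.96 and 3.13, and Egr1 lies on both sides of 0 for I/R against sham.

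Among the Fos partners, Fosl2 was called in myeloid and endothelial cells. In myeloid cells it was 3.55, 10 and 11.4 CPM in sham, 40.4, 141 and 48.7 CPM in I/R and 99.6, 60.5 and 66.2 CPM in SBP. The sham values rest on 2, 11 and 15 UMIs, and 2 of the sham mice were over the filter's minimum. Every I/R and SBP mouse lay above every sham mouse. The log2 fold change was 2.96 (SE 0.50, adjusted p = 0.00395) for I/R and 3.13 (SE 0.50, adjusted p = 0.00399) for SBP, each against sham. With voom weights neither was called (adjusted p = 0.0846 and 0.0952), at fold changes of 2.80 and 2.95.

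Myeloid nuclei changed in kind between the groups. In sham 94.9% of them fell in a cluster led by Cd163, a scavenger receptor of resident macrophages, while 65.3% of I/R and 58.2% of SBP myeloid nuclei fell in a cluster led by Gpnmb that was almost absent from sham (1.7%). Within the Cd163-led cluster alone, a comparison added after seeing the data, Fosl2 was 3.95, 10.1 and 11.1 CPM in sham, 32.2, 103 and 43.6 CPM in I/R, and 82.7, 52.4 and 29.2 CPM in SBP. There it was called, by 2.61 (SE 0.49, adjusted p = 0.0242) and 2.55 (SE 0.49, adjusted p = 0.0239) on the log2 scale. The filter's minimum there was above the 7.33 CPM of all myeloid nuclei, because the sums hold fewer UMIs. How many sham mice passed it was not counted. Fosl2 may thus have been tested there only through I/R and SBP mice and have had to differ. In the Gpnmb-led cluster Fosl2 was 43.3, 157 and 50.7 CPM in I/R and 114, 61.9 and 102 CPM in SBP. Markers listed for other cells moved too. The summed level of 6 cardiomyocyte markers in myeloid nuclei was 5707 to 6288 CPM in sham, 1796 to 2737 CPM in I/R and 1855 to 2370 CPM in SBP, and that of 6 B cell markers 656 to 698 CPM, 52.4 to 154 CPM and 180 to 419 CPM, with 1 of the 6 at 0 in each group. Bank1, on that B cell list, was also among the leading genes of the Cd163-led cluster itself. The part of these markers in the result was not tested.

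**Figure D3:**
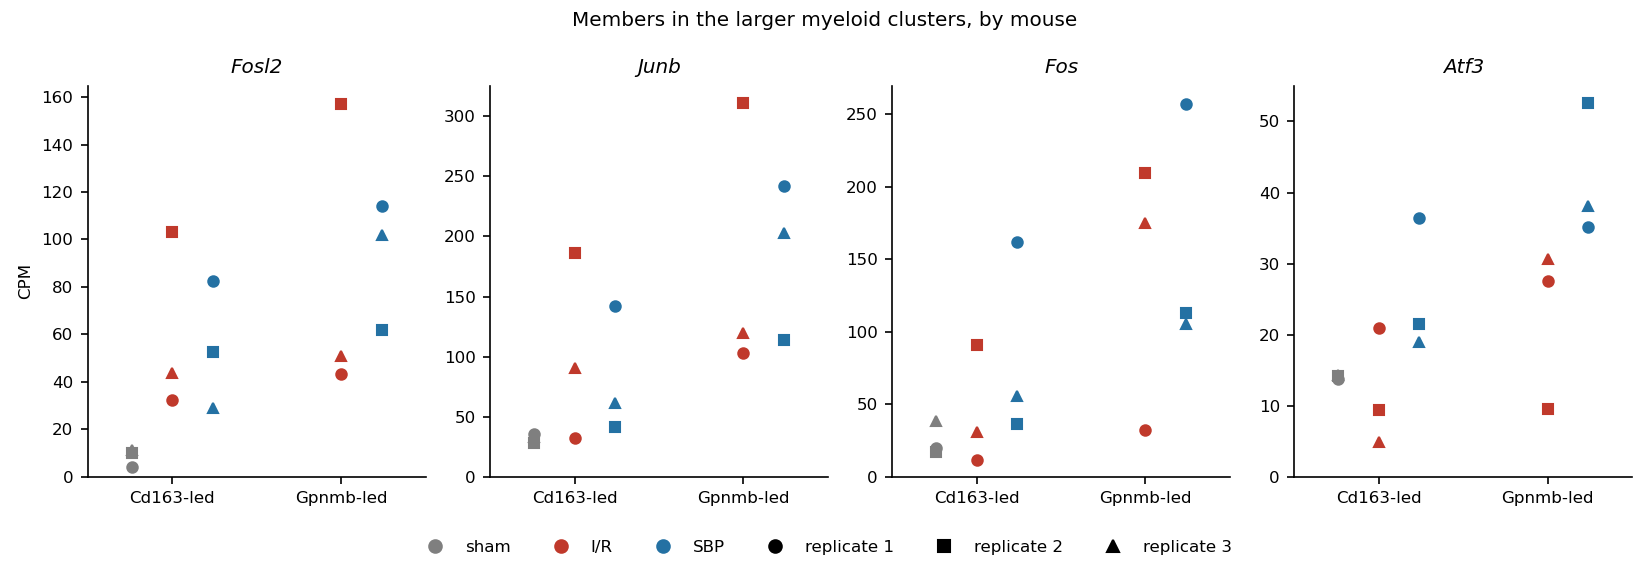
CPM of Fosl2, Junb, Fos and Atf3 in the Cd163-led and Gpnmb-led myeloid clusters, with 1 point per mouse. Sham has no points in the Gpnmb-led cluster, where each sham mouse had under 20 nuclei, and in the Cd163-led cluster the Fosl2 points of I/R and SBP mice all lie above those of sham.

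In endothelial cells Fosl2 was 23.4, 9.01 and 17.8 CPM in sham, 42.8, 69.3 and 44.6 CPM in I/R, and 39.1, 23.1 and 30.1 CPM in SBP. It rose in I/R by 1.65 on the log2 scale (SE 0.32, adjusted p = 0.0206). The SBP mice overlapped with sham, with a fold change of 0.90 (SE 0.32, adjusted p = 0.195). The call for I/R was lost without I/R replicate 2 (adjusted p = 0.0852), sham replicate 2 (adjusted p = 0.0627) or sham replicate 3 (adjusted p = 0.0624), and it held in the largest endothelial cluster alone (1.81, SE 0.38, adjusted p = 0.0179). The summed level of 10 myeloid markers in endothelial nuclei was 192 to 269 CPM in sham, 434 to 576 CPM in I/R and 230 to 364 CPM in SBP, with none at 0. In the same sums 6 cardiomyocyte markers were 7266 to 8887, 2931 to 5119 and 2722 to 3342 CPM, 6 fibroblast markers 866 to 1130, 1158 to 1559 and 1201 to 1317 CPM, and 6 B cell markers 28.9 to 51.5, 3.47 to 18.2 and 11.8 to 15.1 CPM, with 2 B cell markers at 0 in SBP. Their part in the endothelial results was not tested. By subtype, mean Fosl2 in sham and I/R was 18.7 ± 11.2 and 62.6 ± 28.4 CPM (SD, n = 3) in capillary nuclei, 14.3 ± 4.52 and 37.7 ± 8.81 CPM in endocardial nuclei, and 22 ± 12.4 and 82.1 ± 23.6 CPM in arterial nuclei. In each of these subtypes all I/R mice lay above all sham mice, while lymphatic nuclei overlapped (20.8 ± 10.6 and 46.1 ± 32.2 CPM).

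In fibroblasts Fosl2 was 46.3, 17 and 44.6 CPM in sham, 50.8, 81.6 and 121 CPM in I/R, and 75.1, 50.5 and 43.1 CPM in SBP, with a log2 fold change in I/R of 1.25 (SE 0.41, adjusted p = 0.0835), which was not called. In cardiomyocytes it was 10.2, 12 and 12.1 CPM in sham, 15.5, 20.7 and 30.4 CPM in I/R and 28.8, 25.7 and 17 CPM in SBP. Neither group overlapped with sham, and the fold changes of 0.85 (adjusted p = 0.176) and 0.97 (adjusted p = 0.143) did not pass the test.

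Fosl1 was measured in fibroblasts at 1.35, 0.725 and 1.05 CPM in sham, 2.14, 9.6 and 6.21 CPM in I/R, and 3.08, 5.75 and 5.42 CPM in SBP. These rest on few UMIs, namely 8 in 4465 sham nuclei, 69 in 4592 I/R nuclei and 56 in 5066 SBP nuclei. The rise in I/R was 1.62 on the log2 scale (SE 0.43, adjusted p = 0.0305) and in SBP the fold change was 1.47 (SE 0.43, adjusted p = 0.0689). No sham mouse held Fosl1 over the filter's minimum, so that it had to differ from sham. The I/R call was lost with voom weights (adjusted p = 0.131) and without any 1 of sham replicate 1 (adjusted p = 0.0555), sham replicate 2 (0.0785), sham replicate 3 (0.0872), I/R replicate 2 (0.131) or I/R replicate 3 (0.0628). In fibroblast sums 6 cardiomyocyte markers were 4636 to 5467 CPM in sham, 1486 to 2270 CPM in I/R and 1533 to 2264 CPM in SBP, and 10 myeloid markers 127 to 147, 216 to 363 and 141 to 211 CPM, with none at 0 in either list, and their part in the result was not tested. Fosl1 lay mainly in the cluster led by Tnc, an extracellular matrix gene of injured tissue, which held 0.2% of sham, 21.5% of I/R and 13.8% of SBP fibroblasts. There it was 5, 19 and 25.2 CPM in I/R and 12, 17 and 25.3 CPM in SBP. In the other fibroblast cluster it was 1.29, 0.711 and 1.02 CPM in sham, 0, 4.83 and 1.76 CPM in I/R, and 0.368, 0.366 and 1.24 CPM in SBP, where the groups overlapped and it was too low to be tested. In myeloid cells the sham mice had 0 UMIs of Fosl1, the I/R mice 16 and the SBP mice 4.

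Fos, the partner that gives the family its name, was 17.8, 17.3 and 37.3 CPM in sham, 28.2, 176 and 107 CPM in I/R and 206, 93.2 and 80.2 CPM in SBP in myeloid cells. I/R replicate 1 lay within the sham range. The log2 fold changes were 1.80 (SE 0.66, adjusted p = 0.099) and 2.30 (SE 0.66, adjusted p = 0.0553), and neither was called. Within the Cd163-led cluster Fos was 19.7, 17.2 and 38.2 CPM in sham, 11.3, 90.8 and 31 CPM in I/R and 162, 36.3 and 55.6 CPM in SBP, and the fold changes of 0.43 (SE 0.77, adjusted p = 0.848) and 1.51 (SE 0.77, adjusted p = 0.456) were not called. In endothelial cells Fos was 3.34, 7.72 and 9.12 CPM in sham, 14.1, 43.8 and 16.5 CPM in I/R, and 31.2, 34.4 and 18.7 CPM in SBP. All I/R and SBP mice lay above sham, at fold changes of 1.65 (SE 0.44, adjusted p = 0.077) and 1.96 (SE 0.44, adjusted p = 0.0505). Cardiomyocytes held 0.189, 1.85 and 2.32 CPM of Fos in sham, 1.85, 11.9 and 12.1 CPM in I/R, and 14.1, 9.4 and 4.34 CPM in SBP. Fibroblasts held 0.9, 5.07 and 18.5 CPM, then 7.13, 43.5 and 13.6 CPM, and 50.2, 19.6 and 21.2 CPM in the same order. In both types I/R overlapped with sham and SBP did not, and none of the fold changes was called.

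Fosb, a partner best known from neurons, was in endothelial cells 0.556, 1.93 and 2.07 CPM in sham, 18.2, 19.5 and 4.31 CPM in I/R and 9.41, 22.2 and 4.07 CPM in SBP. The groups did not overlap with sham, and the fold changes of 2.41 (SE 0.63, adjusted p = 0.0705) and 2.15 (SE 0.63, adjusted p = 0.122) were not called. No sham mouse held Fosb over the filter's minimum, so that it had to differ from sham. Summed over the group, endothelial nuclei of sham mice held 12 UMIs, those of I/R mice 97 and those of SBP mice 84. In myeloid cells the sham mice had 0 UMIs of Fosb, the I/R mice 28 and the SBP mice 60. Set against a floor of 3 UMIs over the sham group, this was at least 2.76-fold higher in I/R and at least 10-fold higher in SBP, by counting alone. It did not pass the filter there, and with sham at 0 no test is given.

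Among the Jun partners, only Junb was called. In myeloid cells it was 35.5, 28.2 and 36.6 CPM in sham, 85.6, 276 and 114 CPM in I/R and 185, 95.7 and 135 CPM in SBP. No sham mouse reached the lowest I/R or SBP mouse, and Junb rose by 2.03 (SE 0.39, adjusted p = 0.00684) and 1.98 (SE 0.39, adjusted p = 0.0102) on the log2 scale. The call for SBP was lost with voom weights. Within the Cd163-led cluster the values were 35.5, 28.4 and 33.4 CPM in sham, 32.2, 186 and 90.2 CPM in I/R and 142, 41.6 and 61.4 CPM in SBP. The I/R mice overlapped with sham there, and the fold changes of 1.31 (SE 0.61, adjusted p = 0.321) and 1.12 (SE 0.61, adjusted p = 0.488) were not called. Of all genes tested in that cluster, 160 of 9045 were called for I/R and 156 of 9045 for SBP. In the Gpnmb-led cluster Junb was 103, 311 and 120 CPM in I/R and 242, 114 and 203 CPM in SBP. In cardiomyocytes Junb was 6.24, 4.56 and 10.6 CPM in sham, 11.1, 26.8 and 44.4 CPM in I/R and 38.3, 18.8 and 19.6 CPM in SBP, without overlap with sham and without a call (log2 fold change 1.68, SE 0.46, adjusted p = 0.147, and 1.70, SE 0.46, adjusted p = 0.163).

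In fibroblasts the mice within a group were far apart. Junb there was 71.1, 34.4 and 303 CPM in sham, 52.5, 156 and 203 CPM in I/R and 244, 81.4 and 241 CPM in SBP. The highest of the 9 mice was a sham mouse, and the fold change in I/R was 0.38 with an SE of 0.83. Prdx2, a peroxiredoxin gene annotated across part of Junb on the other strand, had a log2 fold change of -0.32 in myeloid cells (adjusted p = 0.368). The strand used in counting is not given in the sources used here, so reads of overlapping genes cannot be told apart with certainty.

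Neither Jun nor Jund was called. Jun in endothelial cells was 33.4, 25.1 and 39 CPM in sham, 51.9, 52 and 48.9 CPM in I/R and 78.3, 42.6 and 38.7 CPM in SBP, with a fold change in I/R of 0.65 (SE 0.25, adjusted p = 0.185). In the other types its log2 fold change in I/R was 0.83 for cardiomyocytes, 0.73 for fibroblasts and 0.73 for myeloid cells, none called. Junos, a transcript that overlaps Jun on the other strand, was called in myeloid cells, from 9.14 to 28.2 CPM in sham to 81.7 to 260 CPM in I/R (log2 fold change 2.68, SE 0.52, adjusted p = 0.00841), where Jun itself was 35.5, 16.4 and 23.6 CPM in sham and 42.6, 33.8 and 46 CPM in I/R. Junos was chosen after its values were seen. Jund, the partner with the steadiest known expression, had fold changes in I/R of 0.30 to 0.69 over the 4 types, the lowest adjusted p being 0.259.

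Atf3 was called in endothelial and myeloid cells, in both for SBP against sham. Outside myeloid cells no sham mouse held Atf3 over the filter's minimum, so that it had to differ from sham there. In cardiomyocytes it was 0.567, 0.856 and 1.51 CPM in sham, 1.55, 17 and 17 CPM in I/R and 15.2, 9.55 and 5.66 CPM in SBP. All I/R and SBP mice lay above sham, although I/R replicate 1 did so by a margin of 1.55 against 1.51 CPM. The fold changes of 2.27 (SE 0.67, adjusted p = 0.177) and 2.43 (SE 0.67, adjusted p = 0.169) were not called. In endothelial cells Atf3 was 2.78, 3.22 and 2.49 CPM in sham, 5.47, 14.3 and 4.67 CPM in I/R and 12.8, 12.2 and 9.36 CPM in SBP, and it rose in SBP by 1.70 on the log2 scale (SE 0.36, adjusted p = 0.0347). That call was lost without any 1 of the sham or SBP mice (adjusted p = 0.0839 to 0.145) and with voom weights (adjusted p = 0.0635). The cardiomyocyte markers in endothelial sums, given above with Fosl2, were lower in every SBP mouse than in any sham mouse, and their part in the call was not tested. In fibroblasts Atf3 was 0.45, 0.725 and 2.44 CPM in sham, 4.51, 7.34 and 2.63 CPM in I/R and 6.17, 4.79 and 2.07 CPM in SBP, with a log2 fold change in I/R of 1.43 (SE 0.46, adjusted p = 0.0644).

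In myeloid cells, where sham already held 12.4, 15.5 and 16 CPM of Atf3, I/R mice had 24.7, 9.5 and 17.9 CPM and SBP mice 33.7, 44.5 and 27.2 CPM. The I/R mice lay on both sides of sham (log2 fold change 0.15, SE 0.32), and Atf3 rose in SBP against sham by 1.19 (SE 0.32, adjusted p = 0.0271). This call was lost without sham replicate 1, 2 or 3 (adjusted p = 0.0823, 0.059 and 0.0628) and without SBP replicate 1 or 2 (adjusted p = 0.0583 and 0.127), with voom weights (adjusted p = 0.102), and within the Cd163-led cluster (adjusted p = 0.499). In arterial endothelial nuclei Atf3 was 42.5, 118 and 41.1 CPM in SBP, 7.25, 18.2 and 0 CPM in I/R and 12.3, 17.1 and 0 CPM in sham, on 0 to 14 UMIs a mouse from 65 to 109 nuclei a mouse. The subtypes were not tested one by one.

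Egr1 was called in none of the 4 types. Its log2 fold change in I/R was 0.95 (SE 0.41, adjusted p = 0.337) in cardiomyocytes, -0.53 (SE 0.41, adjusted p = 0.558) in endothelial cells, 0.42 (SE 0.81, adjusted p = 0.797) in fibroblasts and -0.68 (SE 0.46, adjusted p = 0.334) in myeloid cells. In fibroblasts the mice within a group differed widely, at 69.6, 210 and 80.9 CPM in I/R and 386, 145 and 301 CPM in SBP beside the sham mouse at 308 CPM. The fold change in SBP against sham was 1.69 (SE 0.81, adjusted p = 0.3). It was called only without sham replicate 3 (2.68, SE 0.49, adjusted p = 0.0257), and its adjusted p over all other settings was at most 0.553. In arterial endothelial nuclei Egr1 was 24.6, 34.1 and 8.25 CPM in sham, 65.3, 209 and 17.7 CPM in I/R and 263, 211 and 123 CPM in SBP, where SBP lay above sham in every mouse. The sham values there rest on 2, 4 and 1 UMIs, and that of I/R replicate 3 on 3 UMIs. Capillary nuclei held 62.7 ± 36.9, 40.3 ± 23.5 and 51.5 ± 12.5 CPM (SD, n = 3) in the same order and endocardial nuclei 50.3 ± 38.9, 23.7 ± 8.62 and 40 ± 17.4 CPM, and in both the groups overlapped with sham. Lymphatic nuclei overlapped too, at 11 to 61 CPM in sham, 22.3 to 30.1 CPM in I/R and 19.3 to 41.4 CPM in SBP.

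Klf6 was called in none of the 4 types either. In fibroblasts it was 70.6, 57.3 and 73.9 CPM in sham, 55.6, 68.6 and 71.6 CPM in I/R and 58.3, 79 and 53.7 CPM in SBP. In myeloid cells it was 121, 120 and 146 CPM, 124, 166 and 162 CPM, and 211, 175 and 156 CPM in the same order, with a log2 fold change in SBP of 0.48 (SE 0.17, adjusted p = 0.0851). In arterial endothelial nuclei all I/R mice (254, 218 and 230 CPM) and all SBP mice (229, 177 and 147 CPM) lay above sham (98.2, 68.3 and 82.5 CPM). In lymphatic nuclei (88.8 to 116 CPM in sham, 134 to 282 CPM in I/R and 111 to 172 CPM in SBP) all I/R mice also lay above sham, while SBP overlapped with it. In capillary nuclei (80 to 156 CPM in sham, 141 to 253 CPM in I/R and 109 to 146 CPM in SBP) and endocardial nuclei (44.5 to 152, 79.5 to 111 and 72.3 to 89.8 CPM) the groups overlapped.

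Whether a member answered differently in different cell types was tested on the difference between 2 types within each mouse, for 6 pairs of types. Of 48 tests of members per comparison, 3 were called for I/R against sham, 2 for SBP against sham and 0 for SBP against I/R (limma). Over all genes in the same pairs, 2.96%, 2.36% and 0% were called. At an unadjusted p under 0.05 there were 13, 8 and 4 member tests, where all genes gave 19.1%, 18% and 3.9%. Fosl2 answered less in cardiomyocytes than in myeloid cells, by 2.11 on the log2 scale for I/R (SE 0.48, adjusted p = 0.0347, where 5.07% of all genes were called) and by 2.16 for SBP (SE 0.48, adjusted p = 0.0291, against 5.25%). Junb answered less in endothelial than in myeloid cells, by 1.32 for I/R (SE 0.24, adjusted p = 0.0212, against 3.69%) and by 1.34 for SBP (SE 0.24, adjusted p = 0.0236, against 2.24%). Egr1 differed in the other sense, with a fold change for I/R that was 1.64 higher in cardiomyocytes than in myeloid cells (SE 0.35, adjusted p = 0.0272). Each of these pairs includes myeloid cells, whose mix of clusters differed between the groups. The test did not hold that mix fixed, so its part cannot be told apart.

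The comparison of SBP with I/R asks whether pre-treatment changed the members in injured hearts. The test (limma) called 0 members and 0% of all genes in cardiomyocytes, and likewise 0% among endothelial nuclei, 0% among fibroblasts and 0% among myeloid nuclei, and 0 members with voom weights. At an unadjusted p under 0.05 there were 0 of 8 cardiomyocyte members, 1 of 9 endothelial, 0 of 9 fibroblast and 1 of 8 myeloid members, against 2.1%, 5.09%, 3.52% and 3.81% of all genes. The groups did not overlap for 0 cardiomyocyte members (5.56% of all genes in either direction), 2 endothelial (9.58%), 0 fibroblast (8.35%) and 1 myeloid member (9.07%). These were Fosl2 in endothelial cells (SBP minus I/R -0.74, 95% interval -1.45 to -0.03), Klf6 in endothelial cells (-0.39, with an interval that includes 0) and Atf3 in myeloid cells (1.04, 0.36 to 1.73), with intervals not adjusted for the number of genes and adjusted p values of 0.952, 0.991 and 1. The intervals of the other members were wide. For Fos they ran from -1.02 to 2.02 in myeloid cells and from -1.24 to 2.67 in fibroblasts, and for Egr1 in fibroblasts from -0.58 to 3.11, so that these intervals include a difference of 2 on the log2 scale as well as 0. For Klf6 in fibroblasts the interval was -0.45 to 0.35.

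**Figure D4:**
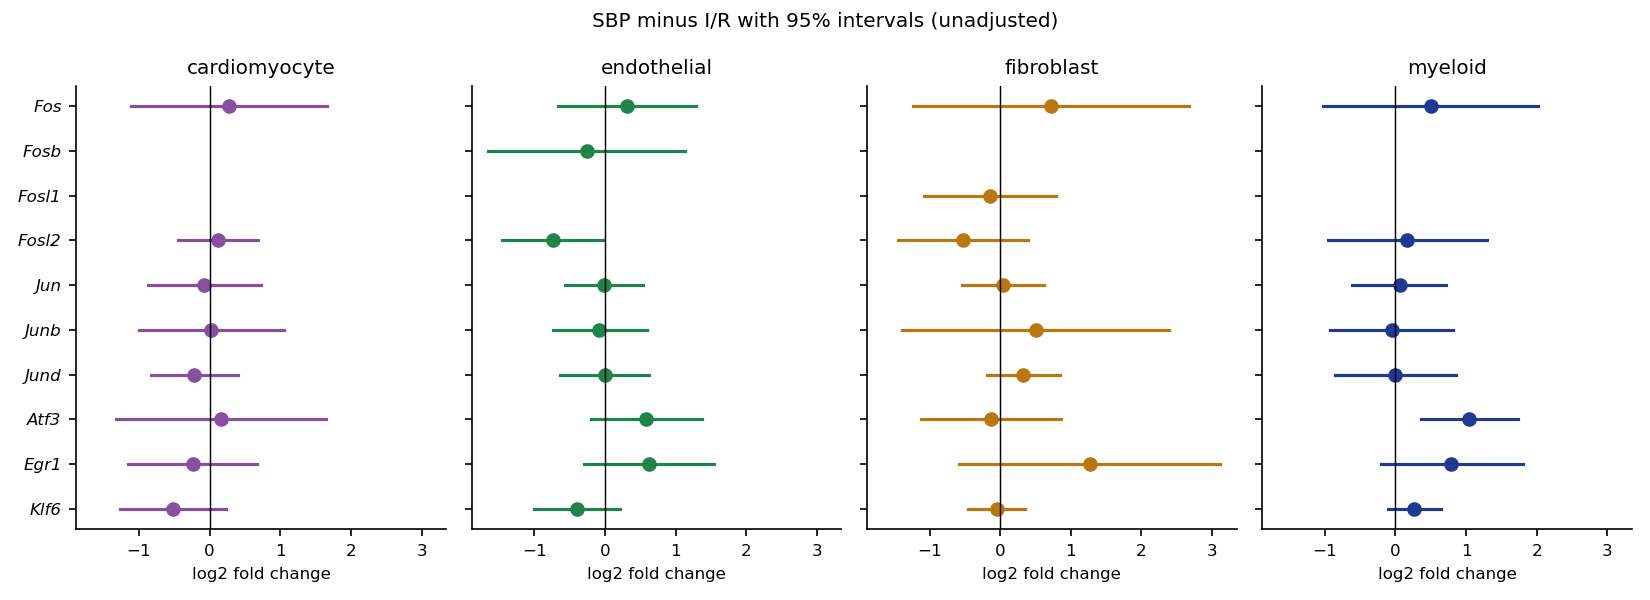
Difference between SBP and I/R (log2 fold change, SBP minus I/R) of each member tested in each of the 4 cell types, with its unadjusted 95% interval. Most intervals include 0, those of Fosl2 in endothelial cells and Atf3 in myeloid cells do not, and Fos, Junb and Egr1 in fibroblasts have the widest.

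Within each group the same mouse was often the highest. Over the 34 pairs of a member and a cell type that were tested, sham replicate 3 was the highest sham mouse in 26 (76.5%), I/R replicate 2 the highest I/R mouse in 24 (70.6%) and SBP replicate 1 the highest SBP mouse in 28 (82.4%). Over all genes these mice were highest in 33.9%, 30.9% and 34.8% of the pairs. Over the other immediate early genes the shares were 42%, 55.5% and 76.5%. I/R replicate 1 was the highest I/R mouse in 1 of 34 pairs (2.94%) and SBP replicate 3 the highest SBP mouse in 0. Members share cells and libraries and are not independent of each other, and the mice were picked out after their values were seen. Total UMIs were 17677640 in sham replicate 3, the highest of sham, 13938191 in I/R replicate 2, the lowest of I/R, and 13573899 in SBP replicate 1, between the other SBP mice. The part of depth was not tested. When I/R replicate 1 was left out, 5 members were called in cardiomyocytes for I/R against sham, namely Fos (2.54, adjusted p = 0.017), Fosl2 (1.08, 0.0312), Junb (2.20, 0.0102), Atf3 (3.22, 0.00204) and Klf6 (1.21, 0.024). Calls over all genes went from 103 of 12905 to 792 of 12614 in the same setting, and Atf3 was tested through I/R and SBP mice alone.

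**Figure D5:**
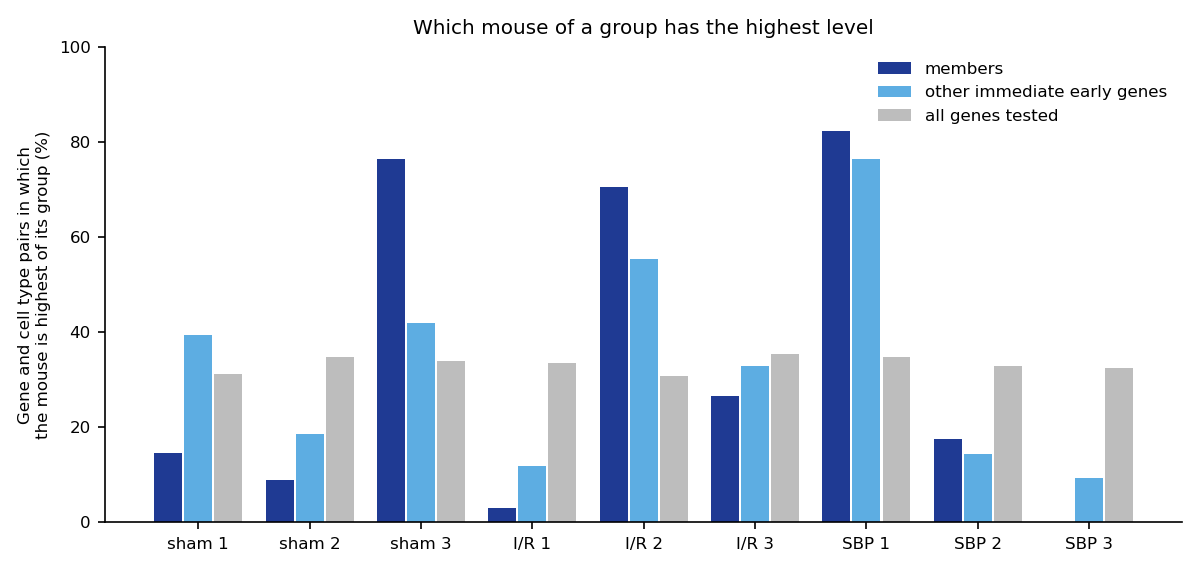
Share of pairs of a gene and a cell type in which a mouse had the highest level of its group, for the 34 pairs of members, the 119 pairs of other immediate early genes and all 48945 pairs of genes tested. Sham 3, I/R 2 and SBP 1 stand at 76.5%, 70.6% and 82.4% for members, while all genes lie between 30.9% and 35.5%.

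In the rarer cell types the levels rest on few nuclei. T cells (772 nuclei) held Junb at 61.5 ± 36.8 CPM in sham, 84.9 ± 51.7 CPM in I/R and 108 ± 27.4 CPM in SBP (SD, n = 3), and Klf6 at 123 ± 51.1, 117 ± 33.6 and 67.8 ± 27.7 CPM. In smooth muscle cells with pericytes (184 nuclei), Egr1 was 92.3 ± 14.4 CPM in 2 sham mice, 41.2 CPM in 1 I/R mouse and 343 CPM in 1 SBP mouse, the others having under 20 nuclei. An unnamed cluster led by Flt3, a receptor of dendritic cells, held Fosl2 at 62.4 ± 15.7 CPM in sham and 71.1 ± 32.7 CPM in I/R (SD, n = 3), where the sham mice lay between 46.6 and 78 CPM on 3 or 4 UMIs each.

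The genes around the members were read from 5 lists chosen by function. The same limma fit was used, and the counts of a list stand against the calls over all genes in the same type. In I/R against sham the genes called higher and lower were 0.635% and 0.163% of all in cardiomyocytes, 1.82% and 1.41% in endothelial cells, 6.48% and 5.19% in fibroblasts, and 10.6% and 7.84% in myeloid cells. Of 17 other AP-1 and basic leucine zipper partners, 16 were tested in myeloid cells, where 3 rose and 2 fell in I/R, beside the 10.6% and 7.84% of all genes. Nfil3, a repressor known from immune cells and the circadian clock, went from 3 UMIs in sham to 441 in I/R, where no sham mouse was over the filter's minimum and the gene had to differ, and Cebpb, which drives inflammatory genes in macrophages, rose by 2.30 (SE 0.37, adjusted p = 0.00299), while Batf3, a dendritic cell factor, fell by 1.99 on the log2 scale (SE 0.34, adjusted p = 0.00179) and Mafg rose by 0.66. In endothelial cells Cebpb rose by 1.90 and Ddit3, a stress factor of the unfolded protein response, fell by 1.31. In fibroblasts Nfil3 rose by 2.58 and Cebpb by 1.44, and Atf5 fell by 0.62. In cardiomyocytes 0 of 14 were called, with 6 at an unadjusted p under 0.05 and 0 called with voom weights. Voom weights called 3, 3 and 4 partners in endothelial cells, fibroblasts and myeloid cells, in either direction.

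Of 34 other immediate early genes in the files, 0 of 30 tested were called in cardiomyocytes (9 at an unadjusted p under 0.05, 0 with voom weights), 1 of 28 in endothelial cells (Gadd45g, 1.54, SE 0.28, adjusted p = 0.0148), 7 rose and 1 fell of 33 in fibroblasts, and 6 rose and 1 fell of 28 in myeloid cells. In fibroblasts Gadd45g, a growth arrest gene, rose by 2.68 and Id2, an inhibitor of helix-loop-helix factors, from 10.5 ± 0.925 to 32.4 ± 8.6 CPM (SD, n = 3), followed by Myc (1.24) and Btg1 (1.21). In myeloid cells Id2 rose by 2.63 (SE 0.23, adjusted p = 1.68e-05), Gadd45b by 2.21, Ier3 by 1.82 and Btg1 by 1.24. Of the 6 that rose there, Gadd45b and Gadd45g were over the minimum in no sham mouse and had to differ. Voom weights called 1, 5 and 3 of the other immediate early genes in endothelial cells, fibroblasts and myeloid cells, in either direction. Among 22 feedback inhibitors, Socs3, which blocks cytokine receptors, rose in I/R in all 4 types, by 2.04 (cardiomyocytes), 1.63 (endothelial), 2.12 (fibroblasts) and 2.86 (myeloid) on the log2 scale (adjusted p = 0.0264, 0.0144, 0.00394 and 0.0156). Nab2, a repressor that binds Egr1, fell by 1.67 in fibroblasts (SE 0.33, adjusted p = 0.00683), and so did Spry1, by 1.09, while Dusp5 rose by 1.38. Dusp2 rose in endothelial cells by 1.70. Socs3 in cardiomyocytes, Dusp2 in endothelial cells and Dusp5 in fibroblasts were over the minimum in no sham mouse and had to differ. In myeloid cells 3 of 17 rose and 3 fell, with Nfkbia higher by 2.11 and Zfp36 by 0.99, while Dusp10 fell by 1.10, Dusp6 by 0.85 and Spred1 by 0.75. Voom weights called 0, 1, 4 and 2 feedback inhibitors in cardiomyocytes, endothelial cells, fibroblasts and myeloid cells, in either direction.

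Of 29 upstream kinases and partners of the serum response factor, 0 were called in cardiomyocytes and endothelial cells (2 and 4 at an unadjusted p under 0.05, 0 with voom weights) and 1 in fibroblasts, where Mapk12 fell by 0.93. In myeloid cells 3 rose and 3 fell of 26, among them Map2k3 (1.57 higher, SE 0.24, adjusted p = 0.000899), Mrtfa (0.62 higher), Mapk10, which fell by 1.75, and Rps6ka5, which fell by 0.76. Voom weights called 1 of these upstream genes in fibroblasts and 5 in myeloid cells. Of 30 genes described elsewhere as AP-1 targets, 11 of 24 were called higher in cardiomyocytes, 10 of 25 among endothelial nuclei, 14 of 27 among fibroblasts and 15 of 24 among myeloid nuclei, and 0, 0, 1 and 2 lower. Of these higher ones, 7, 6, 4 and 6 were over the filter's minimum in no sham mouse, so that they had to differ. With voom weights 6, 7, 13 and 15 were called. Their median log2 fold change was 1.77, 1.31, 1.18 and 2.24, against -0.02, -0.02, -0.01 and 0.09 for all genes. The list was drawn up with earlier results of these data known and is no independent evidence. Spp1, osteopontin, rose in all 4 types, from 1, 3, 0 and 1 UMIs in sham to 1420, 1801, 1989 and 5379 UMIs in I/R, in the same order of types. Hmox1, heme oxygenase, rose by 3.79 in cardiomyocytes and 3.53 in endothelial cells, Lgals3 by 3.29 and 4.30, Timp1, a protease inhibitor, by 3.68 in endothelial cells and 4.66 in fibroblasts and from 2 to 334 UMIs in myeloid cells, and Col1a1 by 3.22 in cardiomyocytes. Tnc rose by 6.66 and Il6 from 0 to 544 UMIs in fibroblasts, while Thbs1 (5.93) and Fn1 (4.62) rose in myeloid cells. Fold changes of genes with few UMIs in sham depend on the 1 CPM added before the log. Cardiomyocyte sums held 10 myeloid markers at 55.2 to 63.7 CPM in sham and 98 to 177 CPM in I/R, and 6 fibroblast markers at 259 to 270 and 322 to 417 CPM, and their part in these rises was not tested.

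In SBP against sham the genes called higher and lower were 0.116% and 0.00775% of all in cardiomyocytes, 0.655% and 1.48% in endothelial cells, 3.7% and 2.36% in fibroblasts, and 7.51% and 5.63% in myeloid cells. Of the partners, 0 of 14, 16 and 15 tested were called in cardiomyocytes, endothelial cells and fibroblasts (4 in each at an unadjusted p under 0.05, and 0, 1 and 0 with voom weights). In myeloid cells Nfil3 went from 3 to 168 UMIs, with the same limit, and Cebpb rose by 2.25, while Batf3 fell by 1.58 and Maf fell by 0.64. The other immediate early genes gave 0 calls among 30 tested in cardiomyocytes and 28 in endothelial cells (10 and 7 at an unadjusted p under 0.05, 0 with voom weights). The feedback inhibitors gave 0 calls among 19, 21 and 20 tested in cardiomyocytes, endothelial cells and fibroblasts (9, 4 and 5 at an unadjusted p under 0.05, 0 with voom weights). The upstream genes gave 0 among 27, 28 and 27 tested (2, 3 and 5, and 0 with voom weights). Of the other immediate early genes, Gadd45g (2.25), Nr4a2 (1.27) and Id2 (1.05) rose in fibroblasts, and Id2 (2.37), Ccn1 (1.87), Gadd45b (1.69) and Plk3 (1.54) were the largest of 6 that rose in myeloid cells, where Nfkbiz fell by 1.18. Ccn1, Gadd45b and Gadd45g were over the minimum in no sham mouse there and had to differ. Voom weights called 2 of the other immediate early genes in fibroblasts and 3 in myeloid cells. Of the feedback inhibitors, Zfp36 rose by 1.07 and Dusp10 fell by 1.13 in myeloid cells. Of the upstream genes, Map2k3 (1.62), Mapk7 (0.90) and Elk3 (0.70) rose in myeloid cells and Mapk10 fell by 1.88. Voom weights called 3 partners, 1 feedback inhibitor and 4 upstream genes in myeloid cells. Of the described targets, 4, 9, 13 and 15 rose in cardiomyocytes, endothelial cells, fibroblasts and myeloid cells, and 0, 1, 1 and 2 fell. Of those that rose, 4, 6, 3 and 6 were over the minimum in no sham mouse and had to differ. With voom weights 0, 5, 6 and 10 of the described targets were called, in either direction and in the same order of types. Tnc rose by 2.99, 2.75 and 6.90 in the first 3 of these types, Lgals3 by 3.16 and Hmox1 by 2.94 in cardiomyocytes, and Timp1 by 2.97, 3.33 and 4.35 in these 3. Spp1 rose to 662, 804 and 2021 UMIs in endothelial cells, fibroblasts and myeloid cells, Lgals3 by 3.68 in endothelial cells and Il6 from 0 to 192 UMIs in fibroblasts. In myeloid cells Thbs1 rose from 4.28 ± 4.12 to 300 ± 97.7 CPM (SD, n = 3), Fn1 by 5.32 and Timp1 from 2 to 146 UMIs. SBP against I/R called none of the genes in these lists.

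Genes whose level ran most like that of a member were taken from the 36 values of 4 types and 9 mice, with the mean of each type removed, as Pearson's r. These values share libraries and are not independent, and the r is a description. Fosl2 ran most like Arg1 (0.89), Gng12 (0.87) and Uhrf1bp1l (0.86), and Junb most like Zfp36 (0.87), Ier3 (0.86) and Btg2 (0.86). Fos was followed by Apod (0.84), Sik1 (0.84) and Ccn1 (0.83), and Egr1 by Ier2 (0.81), Btg2 (0.79) and Nr4a1 (0.73), which are immediate early genes. Jun ran with Sik1, Vwa3a and Rps14 (0.82 each), Jund with Dusp1 (0.84), Thrap3 (0.79) and Asl (0.78), Atf3 with Mier1 (0.77), Lat2 (0.77) and Rps14 (0.76), Klf6 with Slc10a6 (0.76), Adipor2 (0.74) and Scaf11 (0.73). For the rare members, Fosb ran with S100a4 (0.79), Ssr4 (0.78) and Gm5150 (0.77), and Fosl1 with Chil3 (0.85), Hmga2 (0.85) and Vmp1 (0.84). Among the 20 nearest genes there were 3 other members for Egr1, 2 for Jun and for Atf3, 1 for Fos and for Jund, and 0 for Fosb, Fosl1, Fosl2, Junb and Klf6.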

How the data were processed

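Hearts of 9 mice were measured by sNuc-seq, with 3 mice in each of sham, I/R and SBP, taken from the labels with their replicate numbers. Per the study's methods, the authors counted UMIs with Cell Ranger, removed nuclei with few genes or a high mitochondrial share, and normalized with Seurat. The submitters' processing notes name GRCm38, Cell Ranger 4.0 and Seurat 3.2.0, and the methods name other versions of both tools. The deposited values are natural log values per nucleus, ln(1 + 10000 × UMIs / total UMIs). UMIs were recovered by undoing the log and taking a nucleus's smallest value as 1 UMI, refined over all its values, and at least 99.99965% of the values of a mouse came within 0.1 UMI of a whole number. A count test was not run, because the deposited unit is not a count.

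Nuclei were clustered with scanpy 1.11.5 (2000 variable genes without members and listed genes, 30 components, 20 neighbours, Leiden resolution 0.3), endothelial nuclei again (20 components, resolution 0.2). Clusters were named from at least 3 detected markers, so differences from the study may come from rebuilt names. The doublet caller marked 84 nuclei (0.171%), which were removed. Below 0.5% it was taken not to have worked. UMIs were summed per mouse and type with at least 20 nuclei, scaled by trimmed means and tested as log2(CPM + 1) with limma 3.58.1 (trend, robust) over all 9 mice in R 4.3.3. A gene was tested if 3 mice passed the CPM that 10 UMIs give in the median library and all mice together held 15 UMIs. The fold change understates low genes. The code was tested on simulated data. Replicates are separate mice by label. Intervals and floors over UMIs cover counting error only.

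Members, gene lists and tests were chosen with earlier results of these data known. All members were described. From each list up to 4 called genes with the largest change were named per type and comparison, and the 3 genes most like each member. One gene of the lists is not reported here. The alternatives were other pseudocounts (0.5 and 5 CPM), scalings, filters, doublet and cell type rules, voom weights, a replicate block, only the 6 mice compared, single clusters and each mouse left out. Positions are from GENCODE M21 (GRCm38).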

Additional observations from a re-analysis of the deposited data

Results flagged for a closer look

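These differences between cell types passed the test of the difference itself (limma on the within-mouse difference between 2 types, Benjamini-Hochberg over all genes). The log2 fold change of Fosl2 in I/R against sham was 0.85 in cardiomyocytes and 2.96 in myeloid cells, a difference of -2.11 (SE 0.48, adjusted p = 0.0347), and the call held in 9 of 14 other settings. In SBP against sham the difference for Fosl2 was -2.16 (SE 0.48, adjusted p = 0.0291, held in 8 of 14). For Junb the fold change in endothelial cells minus that in myeloid cells was -1.32 in I/R (SE 0.24, adjusted p = 0.0212, held in 10 of 14) and -1.34 in SBP (SE 0.24, adjusted p = 0.0236, held in 8 of 14), each against sham. For Egr1 the fold change in I/R against sham was 0.95 in cardiomyocytes and -0.68 in myeloid cells, a difference of 1.64 (SE 0.35, adjusted p = 0.0272, held in 9 of 14), although neither fold change was called by itself. The I/R and SBP values share the 3 sham mice. None of the 14 settings held the mix of myeloid clusters fixed. The highest adjusted p over the other settings was 0.104, 0.104, 0.0731, 0.0877 and 0.0856 in the order given, each time without 1 mouse (sham replicate 1, SBP replicate 3, sham replicate 3, SBP replicate 3 and sham replicate 1).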

How the results depend on the processing

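The calls of Fosl2 and Junb in myeloid cells held without any 1 mouse, and those of Fosl2 in endothelial cells, Fosl1 and Atf3 did not. Of 43 member values with an unadjusted p under 0.05, recomputed 927 times under other settings, 0 reversed. They were chosen for their low p in the same mice, and some had to differ from sham. A reversal was therefore unlikely in advance, and no conclusion is drawn from the 0. The 8 called values lost their call in 31 of 173 and kept it in 142, while the 35 uncalled values became called in 38 of 754. The numbers of members called in I/R against sham were as follows. In endothelial cells, 1 became 2 with equal weight per nucleus, the replicate block, types from marker scores or the largest cluster only. Over all genes the calls went from 395 of 12220 to 401 of 12220, 321 of 12220, 325 of 11707 and 480 of 10391. In fibroblasts, 1 became 0 with voom weights, with only the 6 mice compared or in the largest cluster, where calls over all genes went from 1525 of 13073 to 1140 of 13073, 1024 of 12496 and 521 of 12287. In myeloid cells, 2 became 1 with voom weights or in the Cd163-led cluster, a setting chosen after seeing the data. The calls over all genes fell there from 1984 of 10747 to 1563 of 10747 and 160 of 9045. In SBP against sham, 0 became 3 in cardiomyocytes with only the 6 mice compared, where calls over all genes went from 16 of 12905 to 388 of 12320. In endothelial cells, 1 became 2 without the filter, with scaling by total UMIs, with the replicate block or with only the 6 mice, and 0 with voom weights or marker scores. All-gene calls went there from 261 of 12220 to 306 of 21623, 263 of 12220, 176 of 12220 and 539 of 11811, and to 235 of 12220 and 162 of 11707. In fibroblasts, 0 became 1 with only the 6 mice or marker scores, where calls over all genes went from 793 of 13073 to 1051 of 12454 and 828 of 12768. In myeloid cells, 3 became 0 with voom weights, 5 with only the 6 mice and 1 in the Cd163-led cluster, where calls over all genes went from 1412 of 10747 to 943 of 10747, 1792 of 10235 and 156 of 9045. The cause of these changes was not tested. The Cd163-led cluster holds fewer nuclei and the fit of 6 mice fewer mice. Leaving out each mouse in turn gave 0 to 5 members in cardiomyocytes, 0 to 2 in endothelial cells and 0 to 2 in fibroblasts for I/R against sham, and 0 to 4, 0 to 2 and 0 to 1 for SBP against sham. The 5 and the 4 came without I/R replicate 1. Over all genes the calls ranged, in the same order of types, from 19 to 792, 67 to 643 and 773 to 1704 for I/R. For SBP they ranged from 0 to 285, 58 to 394 and 364 to 971. Responses that differ between types numbered 0 to 4 for I/R and 0 to 3 for SBP when mice were left out, and 4 for SBP with 5 CPM added before the log. SBP against I/R gave 0 in every setting. The deviations of same-numbered mice correlated at -0.319 to 0.178 for numbers 1 and 2 and at 0.037 to 0.297 for number 3. Since not every pair was over 0.1, the numbers were not taken as pairs. Among the counts of members called, the replicate block moved only the endothelial ones by over 1.5 times. With it, calls over all genes in cardiomyocytes went from 16 to 0 for SBP against sham. A largest-cluster fit was not run for cardiomyocytes, a single cluster, and gave no value for myeloid cells against sham, whose mice had under 20 nuclei there. Levels under about 5 UMIs in a mouse, as for Fosb and Fosl1, are limited by depth.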
